A study of Drosophila melanogaster with 6 samples.

Results

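The genes examined here are the 3 Commissureless genes (comm, comm2 and comm3), the 3 Robo receptor genes (robo1, robo2 and robo3) and the gene of their ligand, sli. They are 7 of the 17559 genes listed in the files, and they were found by their FlyBase identifiers. The group was put together after the difference of comm and comm2 between Hakai KD and control KD had been seen in these same libraries. The members were thus chosen by their values in this contrast, which are given as a description, without a test.

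Gene expression was measured by RNA-seq of poly(A) RNA in S2R+ cells, an established Drosophila line of embryonic origin, at passages 8 to 10. In 3 libraries the cells had received dsRNA against Hakai (Hakai KD), and in the other 3 dsRNA against the bacterial gene lacZ (control KD). The labels give 10 ug of dsRNA and 3 treatments over 6 days for both groups, so that all libraries share the exposure to dsRNA, whereas the study's methods state a lower amount. Hakai encodes a RING-type protein that the study places in MACOM, the accessory part of the complex that writes m6A on mRNA. RNA of a whole culture was sequenced, so that fewer cells with a transcript and less transcript per cell cannot be told apart.

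The primers below define the knockdown. They are the gene-specific parts (22 and 23 bases, Hakai on 2L) of the oligonucleotides with which the study made its Hakai dsRNA, written 5′ to 3′ without their phage promoter tails.
Hakai T7 F: ccttaagtggaaccacaaggtg
Hakai T7 R: gtattgcgactgctgccagttgc
The knockdown was checked on the targeted transcript. Hakai had 296, 329 and 298 normalized counts in the control libraries and 68.1, 72.6 and 77.8 under Hakai KD. A normalized count is a read count scaled to the mean effective library size, and values of single libraries always follow the order of replicates 1, 2 and 3. All libraries of the knockdown were low, with 23.7% of the control level left.

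Slit is a secreted protein that repels growing axons and migrating cells, and Robo proteins are its receptors at the cell surface. In the fly embryo, Slit is made at the ventral midline. Commissural axons can cross there because Comm, a transmembrane sorting protein, keeps newly made Robo1 away from the surface by routing it to endosomes. The pathway is also known for roles in the heart, in muscle and in tracheal cells.

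Each library held between 16041353 and 17288912 counts. Of markers of the hemocyte lineage, to which S2R+ cells are related, all 10 had counts in every library, and their summed level was 1428 to 1481 CPM (reads of a gene scaled to a common library total) in control KD and 1424 to 1467 in Hakai KD. Of these, 9 were tested and 4 rose (Hml, Pxn, He and drpr), or 44.4% against 7.58% of all tested genes higher, and He lost its call without any 1 library. He was also not called by DESeq2 or with scaling by library size alone. The 6 neuronal markers summed to 25.4 to 28.8 CPM in control KD and 19.7 to 28.4 in Hakai KD. Among these, elav had 312 to 461 normalized counts, and 1 or 2 of the others were at 0 in each library. The 6 glial and midline markers summed to 298 to 305 in control KD and 293 to 309 in Hakai KD, most of it from moody, while sim, the midline regulator, had 1 to 3 counts. Of the 2 tested, nrv2 fell, against 7.72% of all tested genes lower. The 5 muscle and tendon markers summed to 96.9 to 108 in control KD and 107 to 108 in Hakai KD, and none was at 0. Of the 2 tested, bt was called higher, a call that was lost by DESeq2 and without any 1 library other than control KD replicate 1. The part of these cell states in the differences below was not tested.

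The Commissureless genes were examined first. comm2 (FBgn0041160) encodes a paralog of Comm and lies on the minus strand of 3L from 15697594 to 15699850 in BDGP6.54, with 2 exon blocks of 1516 bases in all. It had 100.1, 99.9 and 118 normalized counts in the control libraries. Under Hakai KD it had 42.7, 43.2 and 39.95. All Hakai KD libraries were low, all control libraries were high, and the groups did not overlap. The mean went from 106 ± 10.4 (SD, n = 3) in the controls to 41.95 ± 1.74 (SD, n = 3) after knockdown, or -1.33 as log2 fold change with a standard error (SE) of 0.14, so that 39.8% of the control level was left. DESeq2 gave -1.34 with a larger SE of 0.22. The raw counts behind these values were 104, 104 and 114 in control KD and 42, 44 and 38 in Hakai KD. With 95% Poisson intervals, which cover counting error only, 114 counts stand for 94.0 to 137 and 44 counts for 32.0 to 59.1.

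comm (FBgn0010105), which encodes the sorting protein itself, lies on the same strand from 15721511 to 15728430 with 2 exon blocks of 2495 bases. It was detected at few reads, with 15, 17 and 15 raw counts in the control libraries and 7, 5 and 5 under Hakai KD. In normalized counts these were 14.4, 16.3 and 15.5 against 7.12, 4.91 and 5.26. Here too every Hakai KD library was below every control library. The mean went from 15.4 ± 0.951 (SD, n = 3) in the controls to 5.76 ± 1.19 (SD, n = 3) after knockdown, or -1.40 as log2 fold change with an SE of 0.31. DESeq2 gave -1.42 with a larger SE of 0.58, so that the size of this difference is poorly known. The counting intervals of single libraries overlap, with 2.81 to 14.4 for 7 counts and 8.40 to 24.7 for 15 counts. The control libraries alone brought comm past the filter on low counts, which needs about 10 counts in 3 libraries, and with 10 counts required in every library it was not analysed.

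comm3 (FBgn0259236), the remaining paralog, lies on the same strand from 15613184 to 15647762. It had 0 counts in each of the 6 libraries, of 100131624 counts in all. A count of 0 allows up to 3 counts per library, or 0.174 to 0.187 CPM, so that a level below this was not detectable at this depth.

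The log2 fold changes of the expressed Commissureless genes differed by less than the SE of that difference. The log2 fold change of comm minus that of comm2 was -0.07 (SE 0.34), a wide error that comes with the few reads of comm. This SE combines those of edgeR, and the larger ones of DESeq2 would widen it. In raw counts, comm made up 47 of the 369 counts of both genes in control KD, or 12.7% (95% Clopper-Pearson interval 9.51% to 16.6%). In Hakai KD it made up 17 of 141, or 12.1% (7.18% to 18.6%). These intervals pool the reads of 3 libraries and cover counting error only, and since both genes were chosen by this contrast, nothing is read from their overlap. No exon of another gene overlaps comm, comm2 or comm3 in the annotation, on either strand. Reads that could map to both paralogs were not examined, since no sequence of these genes was used here.

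**Figure D1:**
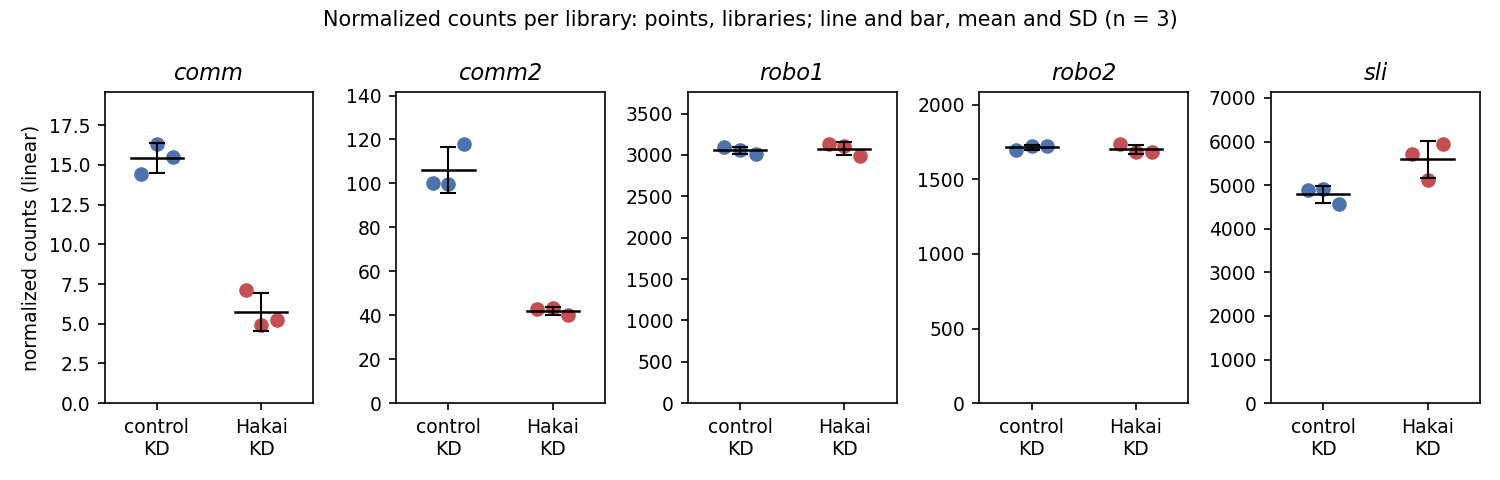
Normalized counts (vertical axis, linear, from 0) of the 5 members with enough reads, in control KD (blue) and Hakai KD (red). Each point is 1 library, and the line with its bar is the mean ± SD of 3. For comm and comm2 the groups are far apart (means of 15.4 and 5.76, and of 106 and 41.9), for robo1 and robo2 they lie on top of each other, and for sli the Hakai KD libraries lie slightly above.

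The receptors were examined next. robo1 (FBgn0005631; 2R, 22692524 to 22700970, minus strand), the receptor that Comm sorts, had 3096, 3064 and 3012 normalized counts in the control libraries. Under Hakai KD it had 3133, 3112 and 2985. Hakai KD gave both the highest and the lowest library, and the groups overlapped. The means were 3057 ± 42.1 (SD, n = 3) and 3077 ± 80.4 (SD, n = 3), and the log2 fold change was 0.0092 (SE 0.031).

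robo2 (FBgn0002543; 2L, 1380086 to 1420453, minus strand) encodes a Slit receptor with further roles in axon position and in crossing. It had 1695, 1724 and 1726 normalized counts in the control libraries and 1737, 1686 and 1682 in those of Hakai KD. The ranges overlapped. The means were 1715 ± 17.5 (SD, n = 3) and 1702 ± 30.8 (SD, n = 3), and the log2 fold change was -0.011 (SE 0.034). Exons of asRNA:CR44897 overlap 1422 bases of robo2 on the other strand and had 3 to 11 counts per library, and lncRNA:CR44898 overlaps 1241 bases on the same strand and had 0. Reads of robo2 cannot be told apart from those of asRNA:CR44897 with certainty, since the strand setting of the counting is not stated. In the bases shared with lncRNA:CR44898, no strand setting could tell them apart. How reads on exons of both genes were counted is not given in the sources used here.

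robo3 (FBgn0041097; 2L, 1256417 to 1296596, plus strand), which sets axon position together with robo2, had 2 counts in control KD replicate 3 and 0 in each of the other 5 libraries. Both groups were thus at or under the level that a count of 0 allows, and no fold change is given. robo3 and robo2 lie 83.5 kb apart. Between them the files list 14 genes, 2 of which were tested and neither of which passed the threshold, with log2 fold changes of -0.52 and 0.11.

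The ligand gene sli (FBgn0264089; 2R, 15869495 to 15922118, minus strand) had 4900.0, 4910.1 and 4561 normalized counts in the control libraries. Under Hakai KD it had 5711, 5117 and 5947. Hakai KD replicate 2 was the lowest of its group and still above every control library. The means were 4790.3 ± 199 (SD, n = 3) and 5592 ± 428 (SD, n = 3), a log2 fold change of 0.22 with an SE of 0.052, or 117% of the control level. Without Hakai KD replicate 3 this value was 0.17, and without Hakai KD replicate 2 it was 0.28.

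Across all 7811 genes that passed the expression filter, edgeR's quasi-likelihood test with Benjamini-Hochberg adjustment called 15.3% at an adjusted p under 0.05. Of the 5 members tested, 3 were called, namely comm, comm2 and sli. Groups without overlap were found in 34.9% of all tested genes and in the same 3 members. As this contrast chose the members, nothing is read from these counts. comm was not called without Hakai KD replicate 2, by DESeq2, or with 10 counts required in every library, and sli was not called without control KD replicate 3 or without Hakai KD replicate 1. Among genes whose mean normalized count was 50 or more, comm2 ranked 3 from the lowest log2 fold change. This place restates the difference by which comm2 was chosen. Next to comm2 in this order were CG5888 at -1.48 and if, which encodes the integrin subunit inflated, at -1.14, while Hakai came first at -2.08.

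Levels of the members were then compared per kilobase of exon, since the exonic length ranged from 1516 bases for comm2 to 9618 for sli. In control KD, sli had the highest level, with 498 ± 20.7 (SD, n = 3) normalized counts per kilobase. It was followed by robo1 with 450.2 ± 6.20 (SD, n = 3), robo2 with 276 ± 2.82 (SD, n = 3), comm2 with 69.9 ± 6.86 (SD, n = 3) and comm with 6.18 ± 0.381 (SD, n = 3). robo3 and comm3 came last and could not be told from each other. In Hakai KD the order was the same, with 581 ± 44.5, 453 ± 11.8, 274 ± 4.97, 27.7 ± 1.15 and 2.31 ± 0.476 (SD, n = 3 each) from sli to comm. No neighbours in this order overlapped between libraries of one group, except robo3 and comm3. Among 7644 tested genes with an exonic length, the level of sli was above 62.1% in control KD and 67.0% in Hakai KD, and that of robo1 above 58.7% and 59.1%. The level of comm2 was above 18.1% of these genes in control KD and 11.5% in Hakai KD, and that of comm above 3.30% and 0.706%. These lower places restate the differences by which both genes were chosen. Since comm passed the filter through its control libraries alone, a place near the bottom in Hakai KD follows from the filter.

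Ratios within a library, free of scaling between libraries, restate these levels. As robo2 stayed level, its ratio to comm2 gives the fall of comm2 again, by which the group was chosen. The level of robo2 per kilobase was 4.14, 4.22 and 3.57 times that of comm2 in control KD replicates 1, 2 and 3, and 9.94, 9.54 and 10.3 times in Hakai KD replicates 1, 2 and 3. The robo1 level was 1.60 to 1.67 times the robo2 level in control KD and 1.62 to 1.69 times in Hakai KD. For ligand over main receptor, sli over robo1, the ratio was 1.07 to 1.13 in control KD and 1.16 to 1.41 in Hakai KD. comm2 over comm was 10.1 to 12.5 in control KD and 9.87 to 14.5 in Hakai KD, with overlapping ranges.

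**Figure D2:**
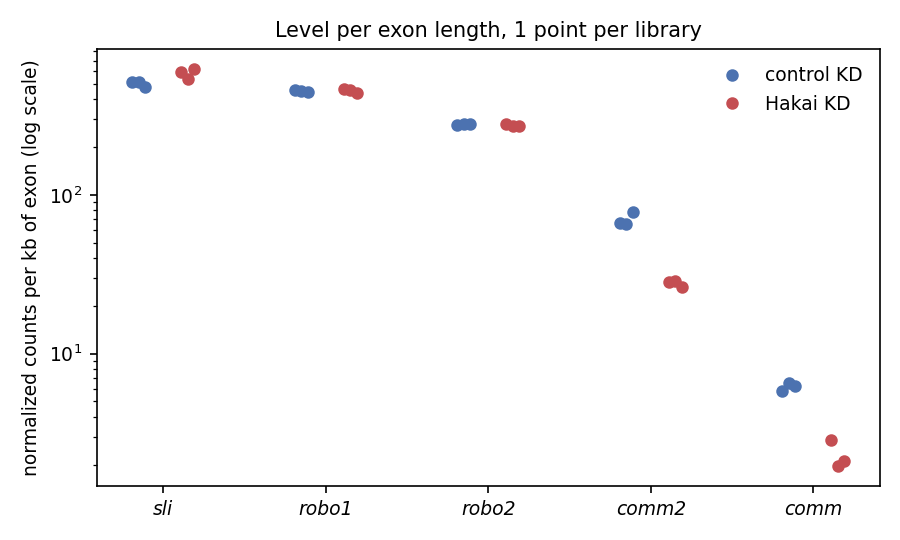
Normalized counts per kilobase of exon (vertical axis, log scale) of the 5 members with enough reads, ordered from the highest to the lowest, with 1 point per library in control KD (blue) and Hakai KD (red). The order is the same in both groups, and the distance from robo2 (276 and 274) to comm2 (69.9 and 27.7) is wider in Hakai KD.

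The surroundings of the Commissureless genes were examined, since the 3 genes lie on one strand of 3L. The start of comm2 is 52.1 kb from that of comm3 and 28.6 kb from that of comm. The cluster stood in a stretch that was otherwise almost silent. Between Phs, within the span of comm3, and fwe lie 186 kb, in which the files list 25 genes besides comm2 and comm. Of these, 22 had no count in any of the 6 libraries, and none of the others had more than 1 count in all. The silent genes include the Eig71E genes, which are known as ecdysone-induced genes of the salivary gland. Within 100 kb of the cluster on either side, the files list 55 other genes, of which 20 were tested.

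Of these 20 neighbours, 2 rose and 1 fell, so that 15% were called against 15.3% of all tested genes. The median log2 fold change of the neighbours was 0.06, against 0.00 for all tested genes, and their values ranged from -0.14 to 0.17. comm and comm2 lie outside this range, but both were chosen by their difference in this contrast. CG7739, which overlaps exons of AGO2 on the other strand, fell from 2839 ± 31.5 normalized counts to 2578 ± 23.5 (SD, n = 3 each, log2 fold change -0.14, SE 0.029, edgeR adjusted p = 0.0079). CG7945 rose (log2 fold change 0.12, SE 0.034, edgeR adjusted p = 0.035). CG7656 rose (log2 fold change 0.17, SE 0.047, edgeR adjusted p = 0.028). The call of CG7945 was lost without any 1 of the 6 libraries (adjusted p 0.056 to 0.15). It was also lost with the replicate block (0.052) and with no filter on low counts (0.071). That of CG7656 was lost without control KD replicate 1 or 2 or Hakai KD replicate 2 or 3 (0.061 to 0.12), and DESeq2 and scaling by library size alone called CG7739 only.

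**Figure D3:**
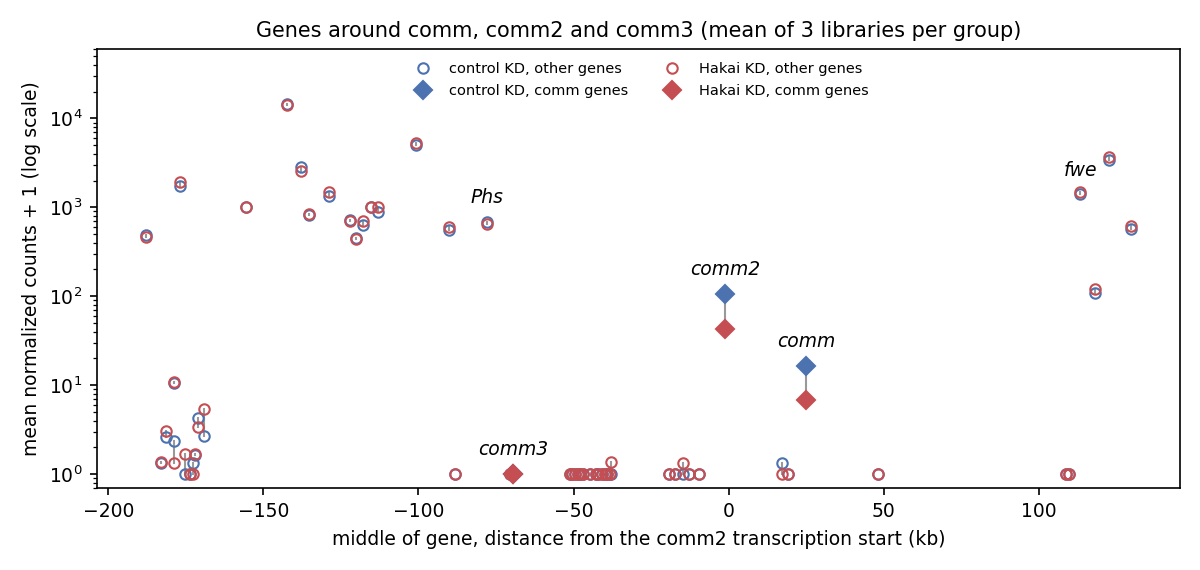
Mean normalized counts plus 1 (vertical axis, log scale) of the Commissureless genes (diamonds) and of every other listed gene within 100 kb (circles), by the distance of the middle of the gene from the comm2 start in kb. Each mean is over 3 libraries of control KD (blue) or Hakai KD (red), and a grey line joins both groups. Between Phs and fwe, comm2 and comm are the sole genes above 1 count in all, and the Hakai KD diamonds lie below the control ones.

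Genes that act with Slit and Robo were counted next. The gene lists used from here on were chosen with earlier results of these data known. Their called shares are thus given as a description. All 30 genes of a list of partners were tested. They comprise HECT ligases, proteoglycans, receptors, the Abl pathway, small GTPases and actin regulators. Of these, 6 rose and 3 fell, against 7.58% of all tested genes higher and 7.72% lower, and the median log2 fold change of the list was 0.03, against 0.00 for all tested genes. Without control KD replicate 2, Hakai KD replicate 1 or Hakai KD replicate 2, the 9 called partners became 5, 5 and 4. Abl, the tyrosine kinase that acts on Robo, had 10376, 10269 and 9867 normalized counts in the control libraries and 12298, 12051 and 12064 in those of Hakai KD. All Hakai KD libraries were above all control libraries, and Abl rose (log2 fold change 0.26, SE 0.032, edgeR adjusted p = 4.0e-04). Dscam1, an immunoglobulin receptor that also takes part in guidance at the midline, rose from 10004 ± 533 normalized counts to 11709 ± 284 (SD, n = 3 each, log2 fold change 0.23, SE 0.041, edgeR adjusted p = 0.0039), and exons of asRNA:CR44071 and asRNA:CR45129 overlap it on the other strand. ena, an actin regulator that binds Robo1, rose (log2 fold change 0.13, SE 0.033, edgeR adjusted p = 0.024). The call of ena was lost without control KD replicate 2 or 3 or Hakai KD replicate 1 or 2 (adjusted p 0.062 to 0.08) and with scaling by library size alone (0.11).

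Nedd4 encodes a HECT ubiquitin ligase that binds Comm in the fly. It had 5272, 5263 and 4919 normalized counts in the control libraries and 5853, 5639 and 5597 in those of Hakai KD. The groups did not overlap, and Nedd4 rose (log2 fold change 0.14, SE 0.036, edgeR adjusted p = 0.019). Exons of lncRNA:CR45165 overlap it on the other strand. Su(dx), a ligase of the same family, fell from 3861 ± 37.8 normalized counts to 3543 ± 67.1 (SD, n = 3 each, log2 fold change -0.12, SE 0.029, edgeR adjusted p = 0.015). The call of Nedd4 was lost without control KD replicate 3 or Hakai KD replicate 1 or 2 (0.055 to 0.07) and with library size alone (0.075). That of Su(dx) was lost without control KD replicate 2 or Hakai KD replicate 2 or 3 (0.054 to 0.071).

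Of the proteoglycans, dally fell and Sdc was called higher. dally, a glypican, fell from 938 ± 27.9 normalized counts to 765 ± 46.1 (SD, n = 3 each, log2 fold change -0.29, SE 0.05, edgeR adjusted p = 0.0026). Sdc, the syndecan that serves as a co-receptor for Slit, had 1350.1, 1523 and 1511 normalized counts in the control libraries and 1943, 1966 and 1483 in those of Hakai KD. Hakai KD replicate 3 lay within the control range. kuz, the metalloprotease that cleaves Robo1, had 2819.5, 3302 and 3305 normalized counts against 4463, 4529 and 3305, again with Hakai KD replicate 3 next to the controls. Both genes were called, with log2 fold changes of 0.30 for Sdc (adjusted p = 0.046) and 0.38 for kuz (adjusted p = 0.025) in edgeR. DESeq2 called neither (0.18 and 0.11), and library size alone did not call Sdc (0.053), which is named here after its values were seen, since its groups overlap. Exons of Acox57D-d overlap Sdc on the other strand, and mir-2489, among other annotated entries, overlaps exons of kuz on the same strand. Sdc lost its call without any 1 library other than Hakai KD replicate 3 (0.078 to 0.17), and kuz without control KD replicate 1 or 2 or Hakai KD replicate 1 or 2 (0.062 to 0.11). Hem, a subunit of the SCAR actin complex, fell (log2 fold change -0.12, SE 0.028, edgeR adjusted p = 0.014), and without Hakai KD replicate 3 its adjusted p was 0.05.

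Netrins and their receptors guide the same axons. In the Drosophila embryo, Frazzled, the Netrin receptor for attraction, is known to raise comm transcription in commissural neurons. fra had 951, 932 and 925 normalized counts in the control libraries and 787, 883 and 765 in those of Hakai KD. Every Hakai KD library was below every control library, and fra fell (log2 fold change -0.20, SE 0.053, edgeR adjusted p = 0.023). This call was lost without control KD replicate 1 or 2 or Hakai KD replicate 1 or 3 (adjusted p 0.062 to 0.087). unc-5, the Netrin receptor for repulsion, had 1276, 1222 and 1153 normalized counts in the control libraries and 921, 849 and 844 under Hakai KD. It fell (log2 fold change -0.48, SE 0.049, edgeR adjusted p = 1.0e-04), and exons of Pms2 overlap it on the other strand. NetB, a ligand, had 16.3 to 33.1 normalized counts in control KD and 24.2 to 36.6 in Hakai KD and missed the threshold, at 0.36 in log2 and an edgeR adjusted p of 0.42. NetA had 0 to 3 counts per library and was not tested. Thus both receptor genes of this list fell and its 1 tested ligand gene missed the threshold. Of its 3 tested genes 2 were lower, against 7.72% of all, or 1 of 3 in the fits that lost the fra call. As the list was chosen with earlier results known, nothing is read from this share.

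A list of 30 other guidance genes (semaphorins, plexins, ephrin, Wnt and adhesion receptors) held 19 tested genes, of which 2 rose and 2 fell. The median log2 fold change was -0.04, and 21.1% of the tested genes were called, against 15.3% of all. caps, a leucine-rich repeat receptor of the cell surface, fell from 211 ± 5.47 normalized counts to 146 ± 10.6 (SD, n = 3 each, log2 fold change -0.53, SE 0.084, edgeR adjusted p = 0.0018). Fas2, a homophilic adhesion molecule of axon bundles, fell (log2 fold change -0.50, SE 0.14, edgeR adjusted p = 0.032). Mical, a redox enzyme that acts behind plexins on actin, rose (log2 fold change 0.16, SE 0.032, edgeR adjusted p = 0.0081), and exons of CG31407 overlap it on the same strand. Ten-m, a teneurin, rose (log2 fold change 0.20, SE 0.048, edgeR adjusted p = 0.015), with lncRNA:CR45962 on the same strand. Fas2 was not called by DESeq2 (0.087) or without any 1 library other than control KD replicate 3 (0.059 to 0.13), and Ten-m was not called without Hakai KD replicate 1 or 2 (0.052 and 0.058), so that 2 of the 4 calls were left without either. Of the genes not tested, 10 had at most 10 counts in any library, and Sema5c was not analysed here.

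Of 10 transcription factors known in the fly for midline identity or for control of guidance genes, 2 passed the expression filter, tgo and HGTX. Neither was called by edgeR (0 of 2, with 0 at an unadjusted p under 0.05) or by DESeq2 (0 of 2). Of all tested genes, edgeR called 15.3%, and 2 genes are too few to set a share against this. sim had 1 to 3 counts per library, eve 2 to 13, mid and exex at most 1, and vvl, H15 and tup 0, while lola was not analysed here.

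**Figure D4:**
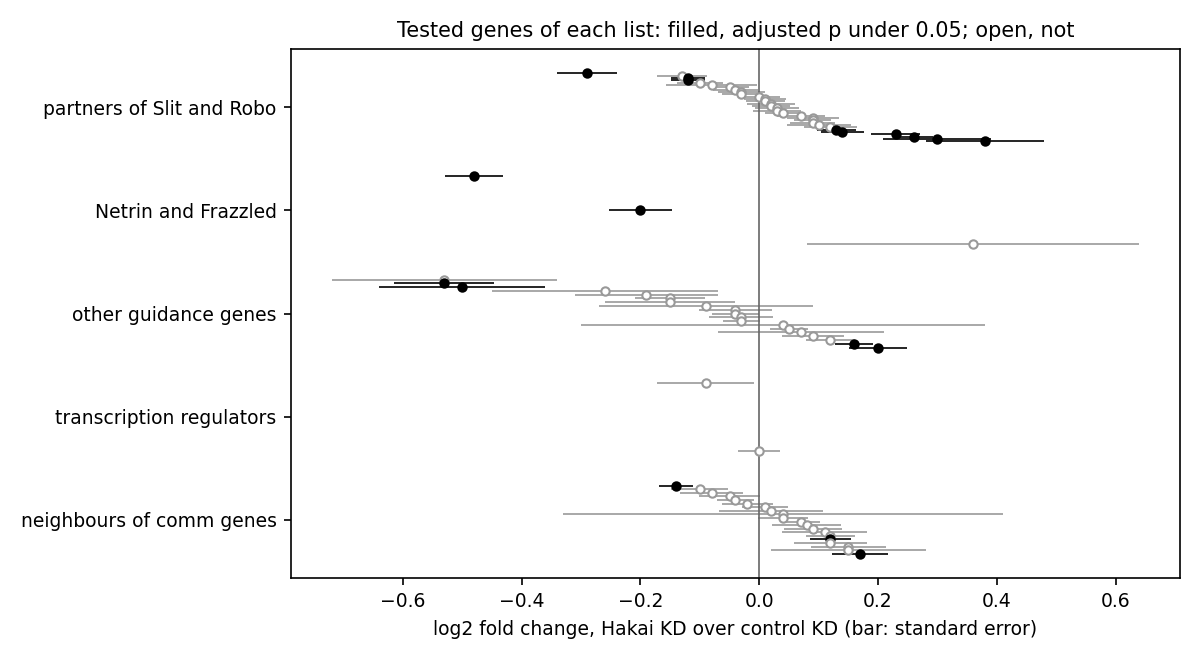
Log2 fold change of Hakai KD over control KD (horizontal axis, bars are standard errors) for the tested genes of the 4 lists and for the neighbours of the Commissureless genes, with 3 libraries per group. Filled points passed an adjusted p of 0.05 in edgeR's test and open points did not. All points lie between -0.53 (caps) and 0.38 (kuz). comm2 at -1.33 and comm at -1.40 are not drawn, and were chosen by their values in this contrast.

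The genes whose pattern over the 6 libraries was most like that of comm2, at a mean normalized count of 50 or more, were Syx4, FBgn0003328, CG44251, VhaSFD and betaTub97EF. Pearson's r of log2 CPM with comm2 was 0.998, 0.998, 0.997, 0.996 and 0.995 in this order, over 6 libraries that fall into the same groups, so that these values describe the step between groups above all. FBgn0003328 is not paired with a symbol in the tables used here. The size of the step was smaller in each of them than in comm2, which was chosen by its difference in this contrast. betaTub97EF, a beta-tubulin, went from 835 ± 36.8 normalized counts to 467 ± 24.1 (SD, n = 3 each), or -0.84 in log2. Syx4, a syntaxin of the cell membrane, had 648 ± 17.9 (SD, n = 3) and 467 ± 13.1 (SD, n = 3), with -0.47. The log2 fold changes of FBgn0003328, CG44251 and VhaSFD, a subunit of the vacuolar ATPase, were -0.89, -0.52 and -0.08.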

How the data were processed

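The authors deposited raw counts of reads per gene and library, made from single reads with STAR and featureCounts on the fly annotation of Ensembl 90 (the submitters' processing notes give versions 2.5.1b and 1.5.1 and BDGP6). The control libraries also served as controls for an earlier series of the study, and the reads of all were run through one computation. Whether the cells and libraries of both groups were prepared together is not given in the sources used here. A batch difference between the groups, if present, cannot be told apart from the knockdown. The library kit is directional. Strand setting and treatment of reads with several positions are not given in the sources used here. Replicates are those of the labels, and p-values measure the spread between them, which may be technical.

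Counts were analysed in R 4.3.3 with edgeR 4.0.16 (filterByExpr, minimum count 10 and minimum total 15, TMM factors, quasi-likelihood test, Benjamini-Hochberg adjustment over all genes tested, threshold 0.05). Standard errors are the absolute log2 fold change over the square root of F, and are thus approximate. They can be too small at few reads, and for comm and comm2 those of DESeq2 were larger. The test was first run on counts simulated with the dispersions fitted here. The outcome is not given here, and nothing is read from it. Of the genes listed, 17253 have a symbol and position in Ensembl release 115 (BDGP6.54, a later annotation of the same assembly), from which exonic lengths (union of exons) and overlaps were taken, and 306 have none. Sema5c, lola and para of the lists were not used.

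The members and lists were chosen with earlier results of these data known. Named genes are the members, Hakai, called list genes without overlap between groups, called neighbours within 100 kb and the 5 genes most like comm2. The other tested neighbours, named by the rule, are given by their range. Alternatives were DESeq2 1.42.0, the replicate block, other scalings, other filters and fits without 1 library.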

Additional observations from a re-analysis of the deposited data

How the results depend on the processing

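The log2 fold changes of comm2 lay between -1.37 and -1.25 and those of comm between -1.58 and -1.30 over the fits that left out 1 library, and those of sli between 0.17 and 0.28. Over the other alternatives comm2 stayed between -1.37 and -1.33, comm between -1.44 and -1.40 and sli between 0.19 and 0.22. No value was obtained for comm with 10 counts required in every library, by construction. robo1 and robo2 stayed near 0, from -0.004 to 0.028 and from -0.026 to -0.0047 over the fits that left out 1 library. With library size alone, the median of all tested genes moved by -0.035, robo1 became -0.026 and robo2 -0.046.

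The number of genes called, 1195 (592 higher and 603 lower), was 708 to 1014 (328 to 521 higher, 380 to 509 lower) over the fits that left out 1 library, all lowest when control KD replicate 2 was left out. The fit lacking Hakai KD replicate 2 called 740, and that lacking Hakai KD replicate 1 called 398 lower. DESeq2 called 810 genes, 416 higher and 394 lower. Library size alone called 374 higher and 922 lower, so that with this scaling the split moved to more decreases. Leaving out 1 library gave 4 to 9 called partners of Slit and Robo, 1 to 2 genes of the Netrin list, 2 to 4 other guidance genes and 1 to 3 neighbours. DESeq2 called 1 neighbour, and so did library size alone. The fits without 1 library hold fewer samples, and for the rest the cause was not tested. Among 20 single genes, 53 of 240 results over the alternatives lost the threshold, and none turned its direction. These genes are Hakai, NetB and the called genes of the guidance lists and of the neighbours, without the cell markers. NetB missed the threshold in the main fit and had none to lose. As nearly all were picked by their calls, nothing is read from the kept direction.

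Deviations of same-numbered libraries correlated at -0.0758, -0.0329 and -0.0746, so that no shared effect of the replicate numbers was seen. With 3 libraries per group this cannot settle whether libraries were prepared in pairs. With the replicate block, 1152 genes were called (596 higher and 556 lower), comm2 was -1.33, comm -1.40 and sli 0.22, and among the genes named the calls of CG7945 and He were lost. At this depth comm rested on 5 to 17 counts per library, and comm3 and robo3, at 0 to 2, could not be followed.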
